A study of Mus musculus with 11 samples.

Results

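Chst8, Mlph, Thrsp and Col6a3 led a ranking of genes that were higher in adult than in newborn sorted mouse microglia. They were chosen by their log2 difference between the groups A_FACS and NB_FACS, from a ranking that held 1526 of the 19572 genes measured. A gene entered the ranking if it was called higher in A_FACS and if the groups did not overlap. In addition, none of its probes that were kept by the filter on dim probes could be dim on an array of either group. The adult and newborn sorted values are therefore given below as a description, with no test. The open question was whether culture or added cytokines raised any of them in newborn cells.

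RNA was hybridised to 11 single-colour Agilent arrays from C57BL/6N mice. A_FACS (2 arrays) held brain microglia of female mice aged 12 to 24 weeks and NB_FACS (3 arrays) those of newborn mice of both sexes at postnatal day 1 to 3, both sorted for intermediate CD45 and high CX3CR1 and lysed without culture. Age and sex cannot be told apart in the adult group. NB_Control and NB_Stim (3 arrays each) were newborn brain cells grown in flasks, each of which pooled several brains and received L-929 conditioned medium. These cells were shaken off between day 18 and day 34, then kept for 1 day in DMEM/F12 with 10% serum. NB_Control received no cytokine, and NB_Stim received human TGF-β1, human IL-34 and human CX3CL1, each at 100 ng/mL. NB_FACS and the cultured groups also differed in isolation method and in days outside the brain, which cannot be told apart from culture itself. Slide 1 held 8 arrays, and slide 2, scanned apart from it, held the 3 newborn arrays numbered replicate 3. The study states that replicates were independent biological samples. Values are log2 quantile-normalised signals, so that 1 unit is a doubling, and the number of arrays limits the precision.

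The labelled cell type was checked on 14 microglial markers, of which 13 could be tested, and their summed normalised signal lay between 77400 and 327000 on the arrays. Transcripts of other cell types differed between the groups. The sum of 10 border macrophage markers was 1430 to 1860 in A_FACS, 12900 to 15700 in NB_FACS, 55300 to 95700 in NB_Control and 21300 to 35300 in NB_Stim. Pf4 and Ms4a7 made up most of the NB_Control sum, with mean log2 signals of 15.13 and 14.12. In NB_Control against NB_FACS, 4 of the 10 were called higher and 3 lower, against 15.8% and 13.9% of all genes. The sum of 7 tested erythroid markers was 8670 to 25500 in A_FACS, 149000 to 205000 in NB_FACS and 319 to 374 in the cultured groups. That of 8 choroid plexus and ependymal markers was 17500 to 125000 in A_FACS and 18200 to 56900 in NB_FACS. Ttr made up nearly all of the latter sum, with mean log2 signals of 15.47 in A_FACS and 15.05 in NB_FACS. In A_FACS against NB_FACS, 0 of these 8 were called higher and 3 lower, against 9.79% and 12.9% of all genes. On each array 66.9% to 80.5% of the probes were well above background. Replicates 1 and 2 of a newborn group lay 0.26 to 0.40 log2 units apart (root mean square over all genes), against 0.57 to 0.70 for replicate 3 and either of them.

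The 4 genes belong to different pathways. Chst8 encodes a Golgi enzyme that sulfates terminal N-acetylgalactosamine on N-glycans, best known from pituitary hormones. Mlph encodes melanophilin, the adaptor that links Rab27a on melanosomes to the motor myosin Va and whose loss causes the leaden coat colour. Thrsp encodes Spot 14, a nuclear protein of lipogenic tissues that is induced by thyroid hormone and carbohydrate. Col6a3 encodes the α3 chain of collagen VI, a microfibrillar matrix protein made mostly by fibroblasts.

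Each value below rests on 1 probe per gene, and the start of the probe is given because it is the sequence that was measured. The first 30 bases are shown, as the array files list them, for the transcript each probe was designed to.
Chst8 (NM_175140.4): tttgagacggagcacgactcggatggatgc
Mlph (NM_053015.3): ctctgtgacttctcctcaactgatgttctc
Thrsp (NM_009381.2): tgggcctgatgcgctgagcacatgaaccta
Col6a3 (NM_001243008.1): aggcgggttgtttttcaatgttgttgtctt
Chst8 (XM_006540337.1): ttgttcgctcctgcctgtgtgaagaagaca
On each of the 11 arrays the first 4 probes were well above background. The last one, a probe for a predicted Chst8 transcript, was not well above background on any array, with signals of 2.11 to 5.89 against a median of 2.17 to 2.89 for the negative control spots. It was left out by the filter on dim probes, so that the values of Chst8 describe the first transcript.

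**Figure D1:**
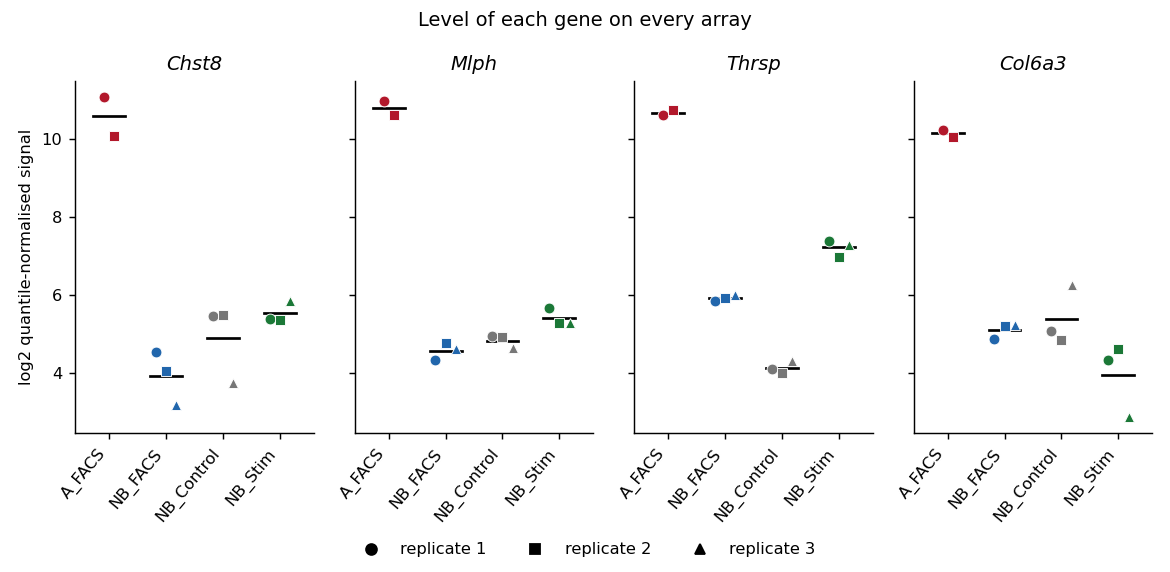
Log2 quantile-normalised signal (y axis) of Chst8, Mlph, Thrsp and Col6a3 on each of the 11 arrays, by group (x axis); each point is an array, its shape the replicate number and the bar the group mean. All 4 genes were above 10 in both A_FACS arrays and under 8 in every newborn array, and only Thrsp had a wide gap between NB_Control (4.0 to 4.30) and NB_Stim (6.98 to 7.4).

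Each of the 4 genes was brighter on both adult arrays than on any newborn array. Chst8 read 11.09 and 10.09 in A_FACS, and 4.54, 4.05 and 3.17 in NB_FACS. Mlph read 10.98 and 10.63 in A_FACS, and 4.34, 4.76 and 4.61 in NB_FACS. Thrsp read 10.62 and 10.76 in adult cells against 5.86, 5.92 and 5.99 in newborn cells. No adult array came within 4 units of a sorted newborn one for any of these genes. Col6a3 read 10.25 and 10.06 in A_FACS, and 4.87, 5.20 and 5.23 in NB_FACS. The differences of the means were 6.67 for Chst8 (102-fold), 6.23 for Mlph (75.3-fold), 5.06 for Col6a3 (33.3-fold) and 4.76 for Thrsp (27.2-fold). In raw signal, Chst8 read 1420 and 959 in the adult arrays and 13.2 to 15.2 in the newborn ones. The negative control spots had a median of 2.17 to 2.89 there and on the other arrays. With normexp background correction, which compresses dim signals, the log2 differences were 4.48 for Chst8, 4.43 for Mlph, 3.80 for Thrsp and 3.67 for Col6a3.

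Thrsp stood just inside the top 4, and the gene just outside it was the MHC class II chain H2-Aa with a log2 difference of 4.14. Ly6a (3.94) and Padi2 (3.67) were among those that followed. Afm, Csmd3 and Tgtp1 had larger fitted differences than Thrsp but were left out of the ranking for dim probes in newborn cells. In NB_FACS, Afm and Tgtp1 were not well above background on any array, which leaves a rise of at least 23.1-fold for Afm and at least 22.4-fold for Tgtp1.

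The comparison of NB_Stim with NB_Control asked whether the cytokines raise any of the 4 genes, and neither group took part in choosing them. Thrsp rose 8.54-fold, and Chst8, Mlph and Col6a3 did not pass the test. Thus 1 of the 4 genes was called in limma's moderated test at an adjusted p under 0.05, where 3.42% of all genes were called in either direction (669 genes, or 1196 with the replicate number as a block).

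Thrsp read 4.10, 4.0 and 4.30 in NB_Control and 7.4, 6.98 and 7.30 in NB_Stim. The lowest stimulated array was above the highest control array by more than the whole spread of either group. The log2 difference was 3.09 (SE 0.15, 95% confidence interval 2.77 to 3.42, adjusted p = 1.1e-05 in limma). Replicates 1, 2 and 3 gave 3.30, 2.98 and 3.00, so that slide 2 matched slide 1. In the order of all 19572 log2 differences Thrsp was in place 8 from the top. With normexp background correction the log2 difference was 1.44 (adjusted p = 3.22e-05 in limma), so that the size of the rise, but not its call, depended on how the dim control signals were treated.

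Chst8 read 5.45, 5.49 and 3.73 in NB_Control and 5.39, 5.37 and 5.86 in NB_Stim. The groups overlapped, and the log2 difference of 0.65 (95% confidence interval -0.49 to 1.79) had an adjusted p of 0.653 in limma. It came from slide 2 alone, where the arrays differed by 2.13, while on slide 1 the difference was -0.09. Mlph read 4.94, 4.92 and 4.63 in NB_Control and 5.66, 5.27 and 5.27 in NB_Stim. Its groups did not overlap, and all 3 replicate numbers were higher with cytokines, by 0.72, 0.35 and 0.64. The log2 difference was 0.57 (95% confidence interval 0.17 to 0.97, adjusted p = 0.142 in limma), and scaling by the 75th percentile in place of quantiles gave 0.76 with an adjusted p of 0.0311 in limma.

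Col6a3 went the other way, with 5.08, 4.84 and 6.25 in NB_Control and 4.34, 4.62 and 2.86 in NB_Stim. All stimulated arrays were below all control arrays. The log2 difference of -1.45 (95% confidence interval -2.50 to -0.40) had an adjusted p of 0.155 in limma. Again slide 2 carried most of it, with -3.39 against -0.48 on slide 1.

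**Figure D2:**
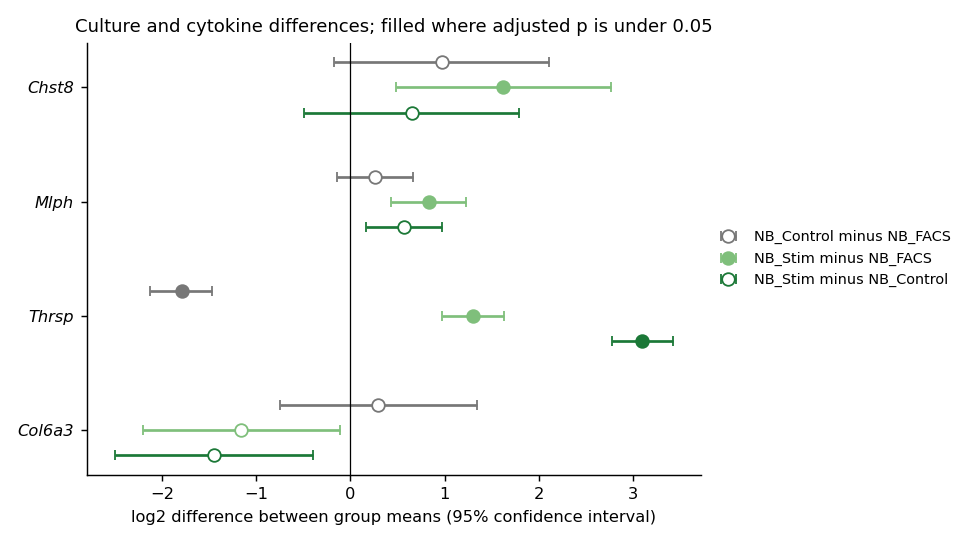
Log2 differences between group means (x axis) with 95% confidence intervals for the 4 genes in 3 comparisons; filled points have an adjusted p under 0.05 in limma. Thrsp lay at -1.79 in culture without cytokines and at 3.09 with them over NB_Control, and Col6a3 was called in none; the NB_FACS arrays took part in choosing the genes.

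Culture without cytokines raised none of the 4 genes past the test. Against NB_FACS, 1 of the 4 was called in NB_Control, and that was a fall of Thrsp, beside 29.7% of all genes called in this comparison. The NB_FACS arrays took part in choosing the genes. Low signal there favours a rise, and the demand for probes well above background there favours a fall. Thrsp fell by 1.79 on the log2 scale (SE 0.15, adjusted p = 1.9e-05 in limma), a 3.47-fold loss seen in all 3 replicate numbers, at -1.77, -1.92 and -1.69. With normexp background correction the fall was -0.64 (adjusted p = 0.000375 in limma).

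The other 3 genes were not called in NB_Control. The log2 difference from NB_FACS was 0.97 for Chst8 (95% confidence interval -0.17 to 2.11, adjusted p = 0.193 in limma). Without replicate 3 of NB_Control it was 1.54 with an adjusted p of 0.0217 in limma, and on slide 1 alone 1.18 with 0.0257. For Mlph the difference was 0.26 (adjusted p = 0.323 in limma). For Col6a3 it was 0.29 (adjusted p = 0.695 in limma), and it turned to -0.14 without replicate 3 of NB_Control.

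The levels of NB_Stim beside NB_FACS are given as a description, because the NB_FACS arrays took part in choosing the genes for low signal there, which favours a rise. The log2 difference was 1.62 for Chst8 (SE 0.51), 1.30 for Thrsp (SE 0.15, 2.46-fold), 0.83 for Mlph (SE 0.18) and -1.16 for Col6a3 (SE 0.47). In limma 3 of the 4 genes passed as higher, where 31.1% of all genes were called and 15.9% were called higher, and nothing is read from this count. Of these, Chst8 did not pass when replicate 2 or 3 of NB_FACS or any of the 3 arrays of NB_Stim was left out (adjusted p of 0.0719 to 0.102 in limma), and Mlph and Chst8 did not pass with normexp background correction.

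The stimulated cells lay below adult cells for all 4 genes. NB_Stim lay 3.46 log2 units below A_FACS for Thrsp (11-fold), 5.05 for Chst8, 5.40 for Mlph and 6.21 for Col6a3. On the log2 scale the distance from the newborn to the adult sorted level was covered to 27.3% by Thrsp, 24.3% by Chst8 and 13.4% by Mlph in NB_Stim, while Col6a3 was at -22.9%. The A_FACS and NB_FACS arrays chose the genes, so that these shares are descriptions.

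The order of the group means differed between the genes. Thrsp ran A_FACS, NB_Stim, NB_FACS, NB_Control, with no overlap between any neighbours. Mlph and Chst8 ran A_FACS, NB_Stim, NB_Control, NB_FACS. For Mlph the NB_Control and NB_FACS arrays overlapped, and for Chst8 NB_Control overlapped with both of its neighbours. Col6a3 ran A_FACS, NB_Control, NB_FACS, NB_Stim, and its NB_Control and NB_FACS arrays overlapped.

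The genes next in the adult ranking served as a comparison. Of the 50 genes in ranks 5 to 54, 3 rose with cytokines (6%, against 1.4% of all genes) and 1 fell (2%, against 2.02%), with a median log2 difference of 0.16 against 0 over all genes. The risers were the growth factor Fgf1 (log2 difference 2.22, adjusted p = 0.0409 in limma), the microtubule-binding protein Nav3 (3.11, 0.000736) and the stress-responsive kinase Plk3 (1.96, 0.000611). The cytokine Il6 fell by 2.86 on the log2 scale (0.000611). In NB_Control against NB_FACS, 8 of the 50 were called higher (16%, against 15.8% of all genes) and 18 lower (36%, against 13.9%), and their median was -1.08 against 0.09 over all genes. The NB_FACS arrays took part in choosing these 50 genes too, with probes well above background there, so that these shares are descriptions.

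**Figure D3:**
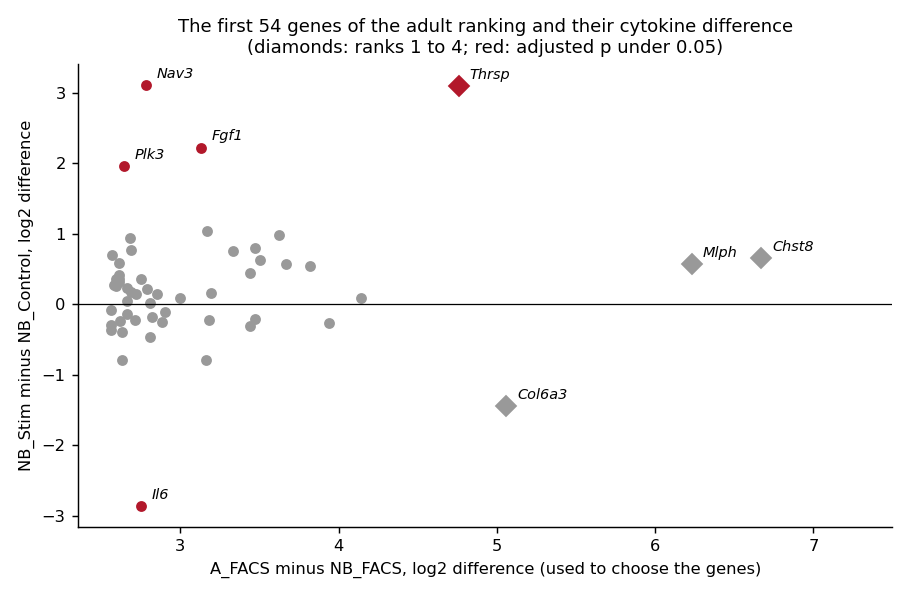
Log2 difference of NB_Stim from NB_Control (y axis) against that of A_FACS from NB_FACS (x axis) for the first 54 genes of the adult ranking; diamonds are Chst8, Mlph, Thrsp and Col6a3, and red marks an adjusted p under 0.05 in limma. Thrsp at 3.09 and Nav3 at 3.11 lay highest, Chst8 and Mlph lay at 0.65 and 0.57, and Il6 at -2.86 lay lowest.

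By pattern over the 11 arrays, the genes nearest to Thrsp were Nav3, with a root mean square difference of 0.79 after centring each gene on its mean, followed by Csmd3 (0.89), Plk3 (0.91) and the muscle protease Capn3 (0.94). The likeness was measured on the same arrays as the differences, which are therefore a description. Nav3 read 5.70, 5.68 and 4.57 in NB_Control and 8.56, 8.57 and 8.17 in NB_Stim, and its log2 difference of NB_Control from NB_FACS was -2.59, beside -1.46 for Plk3 and -1.79 for Thrsp. Between NB_Stim and NB_FACS the log2 difference was 0.52 for Nav3 and 0.49 for Plk3, beside 1.30 for Thrsp. Chst8 and Mlph were each among the nearest genes of the other (0.64), with Csmd3, Afm and Capn3 as the rest of both lists. Col6a3 was nearest to Ly6a (0.87), Mir27a (1.03), Mlph (1.04) and Mir24-2 (1.05). Among the 4 genes themselves, Thrsp and Col6a3 were the least alike (1.77).

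Spot 14, the product of Thrsp, works with the enzymes of fatty acid synthesis, and 21 of the 24 genes listed for that pathway could be tested. With cytokines, 1 of the 21 rose and 1 fell, against 1.4% and 2.02% of all genes, with a median log2 difference of 0.05. The riser was Mlxipl, the carbohydrate-responsive transcription factor ChREBP that is known to drive Thrsp in liver. Mlxipl read 7.17, 7.18 and 5.17 in NB_Control and 9.31, 9.10 and 8.64 in NB_Stim, and rose by 2.51 (SE 0.47, adjusted p = 0.0189 in limma). This call was lost in 3 of 21 alternative settings, namely with only the 2 groups compared (adjusted p = 0.0952) and without replicate 1 (0.0831) or replicate 2 (0.0777) of NB_Stim, where the difference was positive in each.

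In the other comparisons Mlxipl fell by 2.45 on the log2 scale in NB_Control against NB_FACS (adjusted p = 0.00306 in limma), as Thrsp did, and was higher by 2.09 in A_FACS than in NB_FACS (adjusted p = 0.0183 in limma). The adult call was lost without replicate 1 (0.108) or 2 (0.0787) of A_FACS and without replicate 3 of NB_FACS (0.0517). In NB_Stim it differed from NB_FACS by 0.06 (adjusted p = 0.941 in limma), beside 1.30 for Thrsp. Mid1ip1, the paralog of Thrsp whose product partners with Spot 14, went the opposite way with cytokines, by -0.56 (adjusted p = 0.0405 in limma), a call that was lost in 13 of 21 settings. It was 0.92 higher in A_FACS (adjusted p = 0.00143 in limma).

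None of the listed enzymes was called with cytokines, the count of 2 being made up by Mlxipl and Mid1ip1. At an unadjusted p under 0.05, 8 of the 21 genes passed, 4 higher and 4 lower, against 15.2% of all genes. Fatty acid synthase Fasn had a log2 difference of 0.01 with cytokines (adjusted p = 0.993 in limma) and was lower in A_FACS than in NB_FACS (-1.63, adjusted p = 0.00225 in limma). The desaturase Scd2 was lower than in NB_FACS both in A_FACS (-2.61, 0.00228) and in NB_Control (-2.75, 0.000505). Malic enzyme Me1 rose by 4.04 in culture (adjusted p = 0.000118 in limma) and the desaturase Scd1 by 2.51 (0.000168). In A_FACS against NB_FACS, where 22.7% of all genes were called, 4 of the 21 listed genes were called higher and 3 lower.

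**Figure D4:**
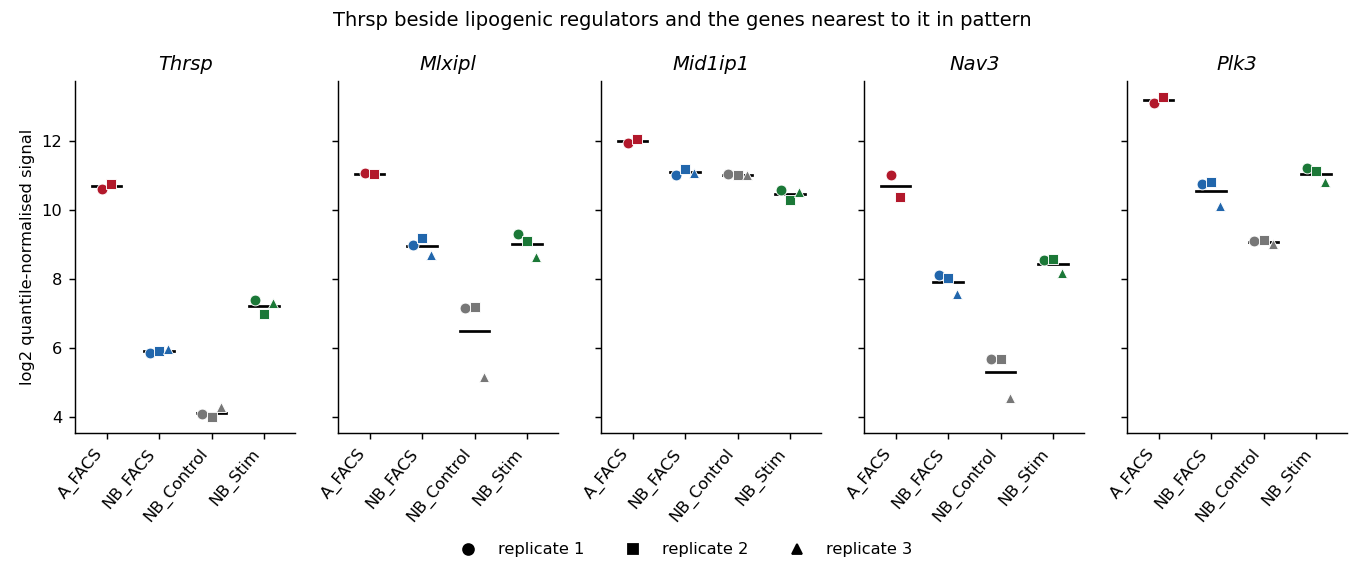
Log2 quantile-normalised signal (y axis) of Thrsp, Mlxipl, Mid1ip1, Nav3 and Plk3 on each array by group (x axis), with bars at the group means. Mlxipl is known to drive Thrsp in liver, and Mid1ip1 is the paralog of Thrsp. Nav3 and Plk3 were among the genes nearest to Thrsp in pattern. Thrsp, Mlxipl, Nav3 and Plk3 were lowest in NB_Control and highest in A_FACS, while Mid1ip1 was lowest in NB_Stim.

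Thyroid hormone, which gave Thrsp its name, acts through receptors that 16 testable genes of a 19-gene list cover together with transport and activation. None of the 16 was called with cytokines in limma, and Thra, Thrb and the deiodinase Dio2 had log2 differences of -0.42, 0.29 and 0.06. At an unadjusted p under 0.05, 3 of the 16 passed. In A_FACS against NB_FACS the hormone-responsive factor Klf9 was higher by 1.89 (adjusted p = 0.00207 in limma) and the receptor Thrb by 0.75 (0.0332), the latter being lost in 9 of 21 settings. The hormone transporter Slc16a10 was lower (-1.18, 0.0212), and the binding protein Crym, not well above background in A_FACS, was at least 15.6-fold lower (0.000634).

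The promoter of Thrsp is shown because Thrsp is the member called with cytokines. It is the stretch of 250 bases before the RefSeq start site on GRCm38.p6, chr7:97417551-97417800, minus strand, and capitals mark each CAGACA, the short form of the SMAD-binding element of the TGF-β pathway, read on either strand.
Thrsp promoter: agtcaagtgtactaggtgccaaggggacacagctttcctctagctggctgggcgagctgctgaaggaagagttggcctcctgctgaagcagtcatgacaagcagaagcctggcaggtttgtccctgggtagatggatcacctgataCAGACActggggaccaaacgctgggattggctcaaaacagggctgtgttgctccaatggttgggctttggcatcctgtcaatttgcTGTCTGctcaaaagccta
The matches began 104 and 18 bases before the start site. A CAGACA was present in 17.1% of the 32851 mouse promoter windows of this length and 2 or more in 2.09%. The windows of Chst8, Mlph and Col6a3 held none. The 3 other motifs were searched on both strands too, and no match overlapped with a CAGACA. The E-box CACGTG, bound by many helix-loop-helix factors, was in 6.02% of windows and once in that of Mlph, 48 bases before the start. The nuclear receptor half-site AGGTCA (14.0%) and the PU.1 site GAGGAAGT (2.44%) were in none of the 4 windows. A match describes letters and not binding. The windows ranged from 53.6% G and C bases in Thrsp to 75.6% in Chst8, against a median of 52.4%.

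Chst8 acts in a family of carbohydrate sulfotransferases, of which, with sulfate donors and related enzymes, 19 of 26 genes could be tested. With cytokines 4 of them rose and 1 fell, against 1.4% and 2.02% of all genes, at a median of -0.05. The risers were the N-acetylglucosamine sulfotransferase Chst2 (1.00, adjusted p = 0.0143 in limma), the chondroitin sulfotransferases Chst11 (0.97, 0.0368) and Chst3 (0.57, 0.0433), and the lysosomal sulfatase Arsb, which removes sulfate (1.26, 0.000611). The dermatan sulfotransferase Chst14 fell by 0.79 (0.0197). The calls of Chst11 and Chst3 were each lost in 12 of 21 settings, that of Chst14 in 6, that of Chst2 in 3 and that of Arsb in none.

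In adult cells Chst11 was higher beside Chst8, by 2.30 (adjusted p = 0.000164 in limma), as was the galactose sulfotransferase Gal3st4 by 0.83 (0.0263), while Arsb was lower (-1.23, 0.000303). Chst11 differed from Chst8 in culture, where it rose by 2.59 in NB_Control over NB_FACS (1.75e-05). It read 7.67, 7.68 and 7.55 in NB_FACS and 10.43, 10.44 and 9.81 in NB_Control.

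Of the transport genes around melanophilin, 14 of 20 could be tested, and neither Rab27a nor Rab27b was among them. With cytokines the melanosome motor Myo7a was called higher (0.70, adjusted p = 0.0453 in limma) and the Rab27 effector Unc13d lower (-0.61, 0.0381), calls lost in 15 and 12 of 21 settings. The motor to which melanophilin binds, Myo5a, was opposite to Mlph in adult cells, with a log2 difference of -2.09 from NB_FACS (adjusted p = 0.000794 in limma). Myo5a read 6.10 and 6.89 in A_FACS and 8.81, 8.72 and 8.24 in NB_FACS. It was higher by 1.46 in NB_Control (0.00178). Rab32, which directs melanosome cargo, was lower in A_FACS (-1.30, 0.0116) and Mreg, a partner of the same route that was not well above background in A_FACS, was at least 3.31-fold lower (0.00819). The Rab27 and Myo7a linker Myrip was higher by 0.78 (0.00974) and Unc13d by 0.84 (0.00344).

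Melanophilin is best known from pigment cells, and 6 of 10 melanocyte markers were tested. Their summed signal was 2400 to 2410 in A_FACS, 1600 to 1920 in NB_FACS and 3950 to 4350 in NB_Control. Most of this sum was Mitf, with a mean log2 signal of 11.84 in NB_Control beside 6.10 for Tyr, 7.46 for Tyrp1 and 4.72 for Pmel. In NB_Control against NB_FACS, Mitf was the 1 marker of the 6 that was called, higher by 1.42 (adjusted p = 4.22e-05 in limma). The defining genes Tyr, Tyrp1 and Pmel differed between A_FACS and NB_FACS by -0.12, 0.10 and -0.26, and none of them was called. Mitf, which is also a macrophage gene, was called higher by 0.55 (adjusted p = 0.0238 in limma).

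Collagen VI is assembled from an α1, an α2 and an α3-type chain, and 23 of 24 genes for its chains, assembly and receptors could be tested. In A_FACS, where Col6a3 was high, 2 of them were called higher and 8 lower, against 9.79% and 12.9% of all genes, at a median of -0.67 against -0.01 over all genes. The partner chain genes were among the lower ones. Col6a1 read 3.12 and 4.99 in A_FACS and 5.70, 6.38 and 6.34 in NB_FACS. The log2 difference was -2.08 (adjusted p = 0.0118 in limma), which was not called without replicate 1 of A_FACS (-1.15, 0.09) or in a fit of the 2 groups alone (0.0623). Only 1 of the 2 adult arrays was well above background for it. Col6a2 was lower (-1.72, 0.00955), a call also lost without replicate 1 of A_FACS (-1.30, 0.109), and so was the receptor Antxr2 (-1.83, 0.00452). The prolyl hydroxylase P4ha1 (1.48, 0.00169) and the lysyl hydroxylase Plod3 (0.79, 0.00785) were called higher with Col6a3.

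In culture without cytokines 12 of the 23 rose and 2 fell, against 15.8% and 13.9% of all genes, while Col6a3 was not called. Antxr2 rose by 4.30 (adjusted p = 8.7e-06 in limma), Col6a1 by 3.08 (0.000453) and Col6a2 by 1.78 (0.00291). With cytokines Antxr2 fell by 2.57 (0.00193) and Col6a2 by 2.10 (0.00885), the latter from 8.14, 8.34 and 9.39 to 6.66, 6.62 and 6.29. Col6a1 had a log2 difference of -1.41 (0.125), beside -1.45 for Col6a3. The proteoglycan receptor Cspg4 rose by 3.57 (0.00261), from 9.34 to 9.68 in NB_Control to 12.41 to 13.48 in NB_Stim. The cytokine calls of Antxr2, Col6a2 and Cspg4 held in each of the 21 settings tried.

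**Figure D5:**
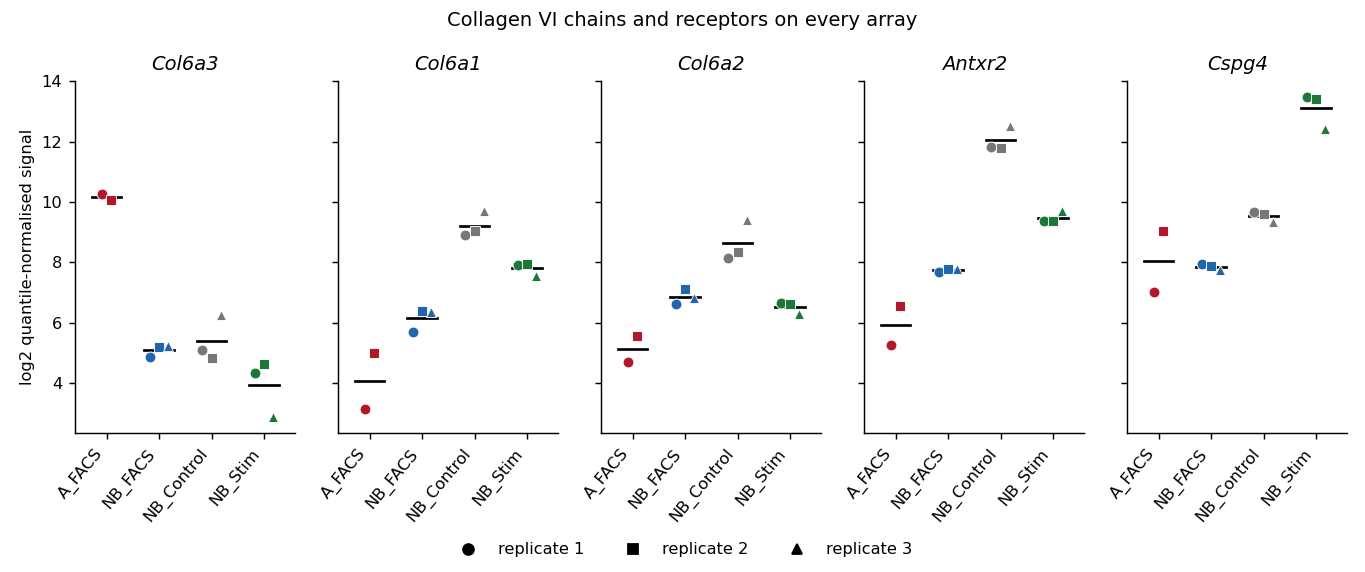
Log2 quantile-normalised signal (y axis) of the collagen VI chains Col6a3, Col6a1 and Col6a2 and the receptors Antxr2 and Cspg4 on each array by group (x axis); bars are group means. Col6a3 was highest in A_FACS, whereas Col6a1, Col6a2 and Antxr2 were lowest there and highest in NB_Control.

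Collagen VI is made mostly by fibroblasts, so fibroblast markers are given beside it. Of 12 fibroblast markers 11 were tested. Their summed signal was 560 to 841 in A_FACS, 1360 to 1580 in NB_FACS, 16000 to 20500 in NB_Control and 9110 to 19400 in NB_Stim. Between A_FACS and NB_FACS 0 of the 11 were called higher and 5 lower in limma, against 9.79% and 12.9% of all genes. In NB_Control 7 were called higher than in NB_FACS and in NB_Stim 9, against 15.8% and 15.9% of all genes. Col6a2 differed from NB_FACS by -0.33 in NB_Stim (adjusted p = 0.504 in limma). With cytokines, where Col6a2 fell, 1 of the 11 was called lower and none higher, against 2.02% and 1.4% of all genes, at a median of -0.61. Col3a1, Lum and Mfap5 were not well above background in A_FACS. Of the vessel markers 3 of 9 endothelial and 3 of 9 mural ones were called higher in the adult arrays, and none lower, against 9.79% and 12.9% of all genes. The endothelial sum was 17900 to 29200 in A_FACS and 10300 to 15100 in NB_FACS, with Ly6a, Flt1 and Slc2a1 called, while Kdr (-0.26) and Pecam1 (0.68) were not. The mural sum was 8220 to 11400 against 3390 to 4910, with Tagln, Acta2 and Myh11 called, while Rgs5 (0.23), Vtn (-0.01) and Notch3 (-0.18) were not. In NB_Control and NB_Stim the mural sum was 32800 to 38500 and 26100 to 51900. The endothelial sum was 5500 to 6360 and 8220 to 8940 there. The part of these cell types in the level of Col6a3 was not tested. On these bulk arrays fewer cells of a type and less RNA per cell cannot be told apart.

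Microglial markers moved in the direction of Thrsp in part. Their sum was 312000 to 327000 in A_FACS, 192000 to 210000 in NB_FACS, 77400 to 91300 in NB_Control and 177000 to 184000 in NB_Stim. With cytokines 5 of the 13 were called higher, against 1.4% of all genes, at a median of 1.02. Border macrophage markers moved the other way with cytokines, with 0 of 10 called higher and 2 lower, against 1.4% and 2.02% of all genes. Their median was -1.65, and the mannose receptor Mrc1 fell by 5.25 on the log2 scale (adjusted p = 3.49e-06 in limma). Their part in the rise of Thrsp was not tested.

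Mlph and Col6a3 are next to each other among the measured genes of chromosome 1, and the genes around all 4 were compared to see whether they moved with them. The 5 nearest measured genes on either side gave 30 genes, counting shared ones once and leaving out Mlph and Col6a3 themselves. In A_FACS against NB_FACS, 5 were called higher and 5 lower (33.3%, against 22.7% of all genes). On the Col6a3 side of the pair, Cops8 came first and differed by -0.02 (adjusted p = 0.934 in limma). On the Mlph side came the peptide gene Prlh, which differed by 0.76 (0.0341, lost in 8 of 21 settings), then Rab17 by -0.28 (0.428) and Lrrfip1 by 1.25 (0.0142, and 0.151 without replicate 1 of A_FACS). Near Thrsp the deubiquitinase gene Usp35 was higher by 2.05 (0.000567). Alg8, the nearest measured gene on the same side of Thrsp, was lower (-0.45, 0.0387). Lower too were Nars2 (-0.55, 0.0293) and Clns1a (-0.57, 0.0239) near Thrsp and Rbm44 (-1.03, 0.0155) on the Mlph side. Iqca on the Col6a3 side, not well above background in A_FACS, was at least 8.78-fold lower (1.12e-05). Near Chst8 the myeloid transcription factor Cebpa was higher by 1.38 (0.00413) and Cebpg by 1.06 (0.0362).

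Cebpa was the neighbour called with cytokines, 1 of 30 (3.33%, against 3.42% of all genes). It read 11.16, 11.66 and 11.69 in NB_Control and 12.85, 12.78 and 12.21 in NB_Stim, a rise of 1.11 (SE 0.23, adjusted p = 0.0299 in limma) that was lost in 6 of 21 settings. Kctd14 and Alg8, the nearest measured genes on either side of Thrsp, were not called (1.05, adjusted p = 0.21 in limma, and -0.42, 0.112).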

How the data were processed

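RNA of 11 microglia samples was amplified with Cy3 and hybridised to single-colour Agilent arrays. The deposited scanner files, made by the authors with Feature Extraction 11.5.1.1, hold a background-subtracted signal intensity for each of 62976 spots, and the deposited series table holds the same intensity, with 0 of 692197 values differing at a relative tolerance of 1e-05. No spot was saturated. Log2 values of the deposited intensity were quantile normalised here in limma 3.58.1 (R 4.3.3), as the authors' methods state for their data. Control spots were left out, spots of a probe were averaged, and 60.4% of 60037 probes were matched to a gene symbol through RefSeq accessions. Kept were the 44749 probes flagged as clearly brighter than background throughout 1 group or more. The kept probes of a gene were averaged, which gave 19572 genes.

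limma was fitted with 1 mean per group over all 11 arrays, with Benjamini-Hochberg adjustment over all genes of a comparison and calls at an adjusted p under 0.05. The fit was tested on simulated arrays with known differences. A gene dim on all arrays of a group is given as at least N-fold, against the higher of its own signal and the lowest signal well above background on each array. The 4 genes, the pathway lists and the markers were chosen with earlier results of these data known. The named genes are these 4, ranks 5 to 8 behind them, up to 3 rises and 3 falls per list and comparison, called neighbours and the 4 genes nearest in pattern. Fgf1, Il6, Thra, Dio2 and the marker genes named singly were added after their values were seen. The values of 1 gene named by this rule are not reported here.

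Groups came from the sample titles. The titles number the newborn samples but do not state that equal numbers are paired. Deviations from the group means correlated within every number (0.112 to 0.49). All arrays numbered 3, and no others, shared slide 2, so these correlations cannot tell pairing from a slide effect. The replicate number was therefore used as a block only as an alternative. Slide and scan coincided. Promoters come from RefSeq on GRCm38.p6. The array design names mm9 and lists no positions, so that no probe coordinates are given. Alternatives were 75th percentile scaling, normexp (offset 50), the series table, other probe filters, the brightest probe, slide or replicate number as a block, fits on 2 groups, Tukey's test and leaving out each array, and a fit on slide 1 alone was added after seeing the data.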

Additional observations from a re-analysis of the deposited data

How the results depend on the processing

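The rise of Thrsp in NB_Stim over NB_Control and its fall in NB_Control kept direction and call in all 22 alternatives. For the fall, each alternative used NB_FACS arrays that took part in choosing the genes, so that none of them removes this selection. The cytokine difference of Thrsp ranged from 1.44 to 3.31. With 75th percentile scaling, 2 of the 4 genes were called with cytokines, Mlph being the second (0.76). With normexp, 1 of the 4 was called against NB_FACS in NB_Stim, as Chst8 (0.55) and Mlph (0.29) were lost. The median adult difference of the 4 genes was 4.12 from NB_FACS and 4.06 from the cultured groups under normexp, and 4.91 and 5.08 with no filter on dim probes, which averages in the second Chst8 probe and lost the call of Chst8 in NB_Stim against NB_FACS (0.65). Tukey's test lost that call too (1.62). On slide 1 alone, Chst8 turned to -0.09 with cytokines, 2 of the 4 genes were called in NB_Control against NB_FACS (Chst8 at 1.18), Col6a3 turned to -0.07 there, and Col6a3 was called in NB_Stim against NB_FACS (-0.56).

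With the replicate number as a block, 1196 genes were called with cytokines, and the block changed no call of the 4 genes. The count was 1475 with slide as a block, 1016 with normexp, and 1029 on slide 1 alone, against 669. Leaving out each array gave 295 to 694, with 333 and 326 without replicate 1 or 2 of NB_Control and 295 and 313 without replicate 1 or 2 of NB_Stim. In NB_Control against NB_FACS, leaving out an array gave 1 to 2 called genes of the 4, with Chst8 at 0.60 to 1.54 and Col6a3 at -0.14 to 0.57, and in NB_Stim against NB_FACS Chst8 ranged from 1.24 to 1.94. The causes were not tested. Dim newborn signals limit all 4 genes, with raw signals of 13.2 to 15.2 for Chst8 in NB_FACS and 13.7 to 16.6 for Col6a3 in NB_Stim.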
